A study of Mus musculus with 20 samples.

Results

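The genes of the insulin-like growth factor (IGF) system described here are 2 ligands (*Igf1*, *Igf2*), 2 receptors (*Igf1r*, *Igf2r*) and 6 binding proteins (*Igfbp2* to *Igfbp7*). They are defined by gene name and not by a threshold on any value, and all 10 were found by symbol among the 54838 genes in the deposited tables, of which 28051 had at least 1 count in any library. Gene expression was counted by QuantSeq, which sequences the 3' ends of mRNAs, in the ovaries of female mice aged 77 days, 5 mice for each combination of line (ctrl or FL1) and stage of the cycle (estrus or diestrus). FL1 is the Dummerstorf high-fertility line, selected over many generations for more offspring per litter, and ctrl is the unselected line bred from the same outbred stock, which the labels call WT. Both lines are outbred and the labels name no engineered allele and no treatment, so a difference between the lines is a difference between whole breeding populations. The ovaries had been freed of fat, oviduct and tunica albuginea, and each library came from 1 mouse. The study compared the lines within each stage of the cycle to look for expression that goes with high fertility.

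IGF1 and IGF2 are small secreted peptides that act mainly through the IGF1 receptor, a tyrosine kinase that feeds the PI3K-AKT and MAP kinase cascades. The IGF2 receptor has no kinase and takes up IGF2 for degradation. The binding proteins hold the ligands outside the cell, which lengthens their life and withholds them from the receptor, and proteases such as PAPP-A release the ligand again by cutting its carrier. In the ovary, IGF1 strengthens the response of granulosa cells to follicle-stimulating hormone and is tied to follicle growth, while changes in binding proteins accompany follicle selection and atresia.

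Library totals ranged from 5991223 to 10352718 counts. Levels are given as CPM (counts scaled to a common library size), scaled by TMM factors over all 20 libraries. Because QuantSeq primes at the poly(A) tail, the number of reads does not grow with transcript length. Where reads of different genes stand side by side, as in a ratio within a library, no difference in level between the genes is read from them. In whole ovary, fewer cells of a type and less RNA per cell cannot be told apart. Ctrl estrus replicate 5 was the library least like its own group, with a mean correlation of 0.937 against 0.954 to 0.971 in the other 19 libraries, and its summed granulosa markers reached 1679.8 CPM against 3126 to 6351 CPM elsewhere. Of the defining ovarian markers, *Amh* (granulosa) had 17 and *Insl3* (theca) had 7 counts over all libraries, whereas the other 9 granulosa and 5 theca and interstitial markers passed the filter. On the same strand, *Insl3* shares 64.8% of its exonic bases with another gene and *Amh* shares 0%. The part of this sharing in the low counts was not tested. Except for *Igf2*, all members passed the filter on low counts and were tested, which leaves 9.

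Across the 4 groups, the binding proteins *Igfbp2*, *Igfbp4* and *Igfbp5* moved most. *Igfbp2* was weaker expressed and *Igfbp5* stronger expressed in FL1 than in ctrl in estrus. *Igfbp2* and *Igfbp4* were stronger expressed in estrus than in diestrus in both lines. In edgeR's quasi-likelihood test, 2 of the 9 members differed between the lines in estrus, 1 in each direction, where 2.33% of all tested genes differed (1.07% higher and 1.26% lower in FL1). In diestrus 0 of 9 differed, where 4.11% of all tested genes did (2.29% higher and 1.82% lower). *Igfbp5* and *Igfbp7* had an unadjusted p under 0.05 there, as had 2351 of the 13259 genes tested. DESeq2 called both of these members, where it called 5.31% of all genes it tested. Between the stages, 2 of 9 members rose in ctrl, where 2.85% of all tested genes changed (1.78% rose and 1.06% fell). In FL1, 5 of 9 rose and 1 fell in estrus, where 15.9% of all tested genes changed (7.42% rose and 8.49% fell). The median log2FC of the members was -0.0028 in estrus and 0.048 in diestrus for FL1 against ctrl, beside -0.0052 and -0.0093 for all genes. For estrus against diestrus it was 0.26 in ctrl and 0.45 in FL1, beside -0.01 and 0.01 for all genes. These comparisons share libraries in pairs and are not independent of each other.

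**Figure D1:**
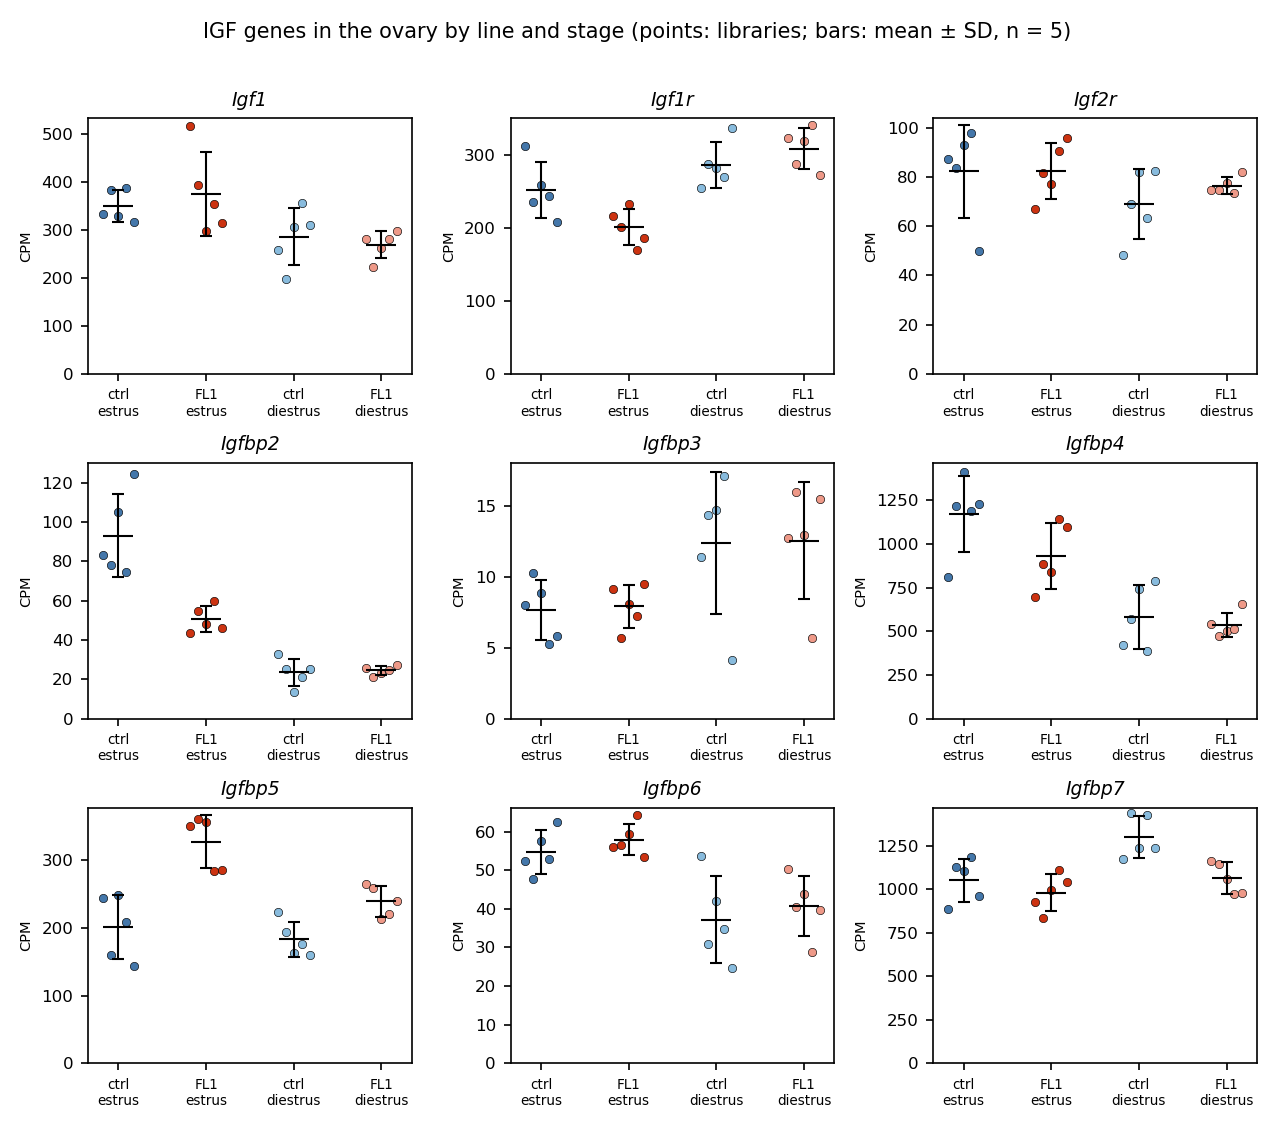
Expression of the 9 detected genes of the IGF system in each library, in CPM on a linear axis that starts at 0, by line and stage; points are libraries and bars are the mean ± SD of 5 mice. The ctrl estrus libraries of *Igfbp2* lie between 74.8 and 124 CPM, above every other library, and the FL1 estrus libraries of *Igfbp5* lie between 284 and 360.3 CPM, above every other library.

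*Igf1* (ENSMUSG00000020053, chr10:87858265-87937042, plus strand, GRCm38) encodes the main growth-promoting ligand of the postnatal animal. In FL1 it had 516, 394, 298, 354 and 314 CPM in the estrus libraries. In FL1 diestrus it had 282, 223, 262.6, 281 and 298 CPM. The stages of FL1 did not overlap, but the lowest estrus and the highest diestrus library lay almost together and 1 estrus library stood well above the rest. Non-overlap of the FL1 stages held for 11.7% of all genes. *Igf1* rose by a log2FC of 0.48 ± 0.13 (SE, n = 5 per group) in FL1 estrus against diestrus (edgeR, adjusted p = 0.0207). The call was lost without FL1 diestrus replicate 2 or 3 (adjusted p = 0.0514 in both fits). In ctrl, *Igf1* had a mean of 349 ± 33.0 CPM (SD, n = 5) in estrus and 286 ± 60.04 CPM in diestrus, with overlapping libraries and a log2FC of 0.29 ± 0.14 (edgeR, adjusted p = 0.365). The lines differed by a log2FC of 0.10 in estrus (95% interval -0.20 to 0.41) and -0.09 in diestrus (95% interval -0.38 to 0.20).

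*Igf2* (ENSMUSG00000048583, chr7:142650766-142666816, minus strand), the growth factor of the fetus that is expressed from the paternal allele, had 0 counts in each of the 20 libraries. A count of 0 allows up to 3 counts, which is 0.282 to 0.527 CPM in these libraries and covers counting error only. The zero cannot be read as absence of the transcript. In the annotation used here, 62.8% of the exonic bases of *Igf2* are also exonic bases of *Gm49394*, a protein-coding gene on the same strand, and *Gm49394* was at 0 counts as well. Among protein-coding genes with at least 95% of their exonic bases shared with another gene on the same strand, 174 of 176 (98.9%) were at 0 in all libraries, against 3975 of 20179 (19.7%) of those that share none. *Igf2*, at 62.8%, belongs to neither of these classes. *Insl3*, with a like share of 64.8%, had 7 counts over all libraries, and *Gm49394*, with 75.9%, had 0. Whether this sharing set the zero of *Igf2* was not tested. *H19*, the non-coding neighbour of *Igf2* that is expressed from the maternal allele, was detected in every group, with means of 47.6 ± 15.2 CPM in ctrl estrus, 34.8 ± 8.68 in FL1 estrus, 25.9 ± 15.8 in ctrl diestrus and 24.3 ± 9.12 in FL1 diestrus (SD, n = 5).

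*Igf1r* (ENSMUSG00000005533, chr7:67952827-68233668, plus strand) encodes the signalling receptor of both ligands. Its FL1 estrus libraries had 217, 202, 233, 169.7 and 186 CPM. Its FL1 diestrus libraries had 323, 288, 320.3, 342 and 272.6 CPM. Every FL1 library in estrus lay below every FL1 library in diestrus, a non-overlap that held for 11.7% of all genes. The log2FC was -0.62 ± 0.10 (edgeR, adjusted p = 0.000318). In ctrl the libraries of the stages overlapped, with means of 252 ± 38.5 and 287 ± 31.3 CPM and a log2FC of -0.19 ± 0.12 (edgeR, adjusted p = 0.507). The difference between these stage changes was -0.43 ± 0.15 on the log2 scale and missed the threshold (edgeR, adjusted p = 0.265). Between the lines in estrus, *Igf1r* had a log2FC of -0.33 ± 0.12 (edgeR, adjusted p = 0.203).

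*Igf2r* (ENSMUSG00000023830, chr17:12682406-12769664, minus strand), the clearance receptor of IGF2, which also sorts mannose 6-phosphate-tagged enzymes to the lysosome, was not called in any comparison. Its group means were 82.4 ± 18.9 CPM in ctrl estrus, 82.4 ± 11.4 in FL1 estrus, 69.0 ± 14.2 in ctrl diestrus and 76.4 ± 3.49 in FL1 diestrus (SD, n = 5). The libraries overlapped in all 4 comparisons within a line or stage. The largest of the 4 log2FC was 0.26 ± 0.18, in ctrl estrus against diestrus (edgeR, adjusted p = 0.567). It was 0.15 without ctrl diestrus replicate 1 and 0.39 without ctrl estrus replicate 5, and passed in neither fit. Between the lines in estrus the log2FC was -0.0028, or -0.13 without ctrl estrus replicate 5 (edgeR, adjusted p = 0.588). The antisense transcript *Airn* overlaps *Igf2r* on the opposite strand and had 598 counts in all libraries together.

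*Igfbp2* (ENSMUSG00000039323, chr1:72824503-72852474, plus strand) and *Igfbp5* (ENSMUSG00000026185, chr1:72857932-72874884, minus strand) are neighbours on chromosome 1 that face each other with their 3' ends, 5457 bp apart, with 0 annotated genes between them. *Igfbp2* encodes a carrier that is abundant in the fetus and binds both ligands. *Igfbp5* encodes the most conserved of the binding proteins, which also attaches to the extracellular matrix. *Igfbp4* (ENSMUSG00000017493, chr11:99041244-99054392, plus strand) encodes an inhibitory carrier and is the classical substrate of PAPP-A. The promoter windows of these 3 genes are shown because these were the members called in more than 1 of the 4 comparisons within a stage or a line. For *Igfbp2* the more upstream of its RefSeq windows is shown. Each runs from 250 bases before to 50 bases after a RefSeq start site (GRCm38.p6), 5' to 3' on the strand of the gene, and capitals mark hits of the motifs searched.
Igfbp2, chr1:72824230-72824529: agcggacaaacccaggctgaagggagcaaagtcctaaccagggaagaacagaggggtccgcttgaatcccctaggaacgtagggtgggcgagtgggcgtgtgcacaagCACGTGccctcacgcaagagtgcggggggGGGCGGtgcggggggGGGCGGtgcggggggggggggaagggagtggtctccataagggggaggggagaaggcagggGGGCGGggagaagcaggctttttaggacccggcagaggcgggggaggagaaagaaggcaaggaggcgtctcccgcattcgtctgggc
Igfbp5, chr1:72874816-72875115: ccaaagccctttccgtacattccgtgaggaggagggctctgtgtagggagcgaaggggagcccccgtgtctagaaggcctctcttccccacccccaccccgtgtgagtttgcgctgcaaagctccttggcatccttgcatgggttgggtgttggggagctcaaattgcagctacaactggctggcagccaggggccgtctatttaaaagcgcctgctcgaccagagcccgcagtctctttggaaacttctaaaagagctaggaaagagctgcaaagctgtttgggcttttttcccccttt
Igfbp4, chr11:99040994-99041293: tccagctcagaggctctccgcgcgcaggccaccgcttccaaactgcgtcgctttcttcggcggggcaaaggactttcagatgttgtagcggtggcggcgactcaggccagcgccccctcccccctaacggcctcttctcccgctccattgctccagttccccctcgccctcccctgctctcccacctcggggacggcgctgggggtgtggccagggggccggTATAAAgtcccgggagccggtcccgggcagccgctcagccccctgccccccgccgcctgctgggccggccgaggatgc
All 10 members have such a window, 14 windows in all. The motifs were searched on both strands, and each share is that among 32851 RefSeq promoter windows. The *Igfbp2* window held 3 GC boxes (GGGCGG, 35.7% of windows), which start at -113, -98 and -37 from the start site, and an E-box (CACGTG, 7.15%) at -142. The *Igfbp4* window held a TATA box (TATAAA, 13.6%) at -28, and the *Igfbp5* window held none of the motifs. A CCAAT box (CCAAT, 37.4%) was in none of the 3 windows. No member window held a cAMP response element (TGACGTCA, 1.79%), a palindromic estrogen response element (0.0700%), a progesterone and androgen response element (0.475%), a FOXO site (TGTTTAC, 3.65%) or an NR5A site (CAAGGTCA, 1.56%). This describes the letters of the windows and says nothing about binding.

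For *Igfbp2*, the ctrl estrus libraries had 83.0, 78.1, 105, 74.8 and 124 CPM. The FL1 estrus libraries had 43.6, 54.7, 48.1, 59.8 and 46.1 CPM. Every FL1 library lay below every ctrl library in estrus, and this non-overlap held for 4.83% of all genes in the same comparison. The log2FC was -0.89 ± 0.15 (SE, n = 5 per group; edgeR, adjusted p = 0.00599), a 1.85-fold lower level. Leaving out any 1 library kept the call, with log2FC from -0.96 to -0.75 (edgeR, adjusted p from 0.00371 to 0.0259), the smaller one without ctrl estrus replicate 5, which had the highest *Igfbp2* level of all libraries. In diestrus the ctrl libraries had 32.6, 25.3, 13.7, 21.2 and 25.0 CPM. The FL1 libraries in diestrus had 25.9, 21.2, 23.3, 24.9 and 27.5 CPM, all within the ctrl range. The log2FC in diestrus was 0.05 (95% interval -0.35 to 0.44), so a line difference of the size seen in estrus lies outside this interval.

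*Igfbp2* was also the member with the largest change between the stages. It rose from diestrus to estrus by a log2FC of 1.97 ± 0.21 in ctrl (edgeR, adjusted p = 0.000483), which is 3.92-fold (95% interval 2.86 to 5.37). Without ctrl estrus replicate 5 it rose by 1.84 (edgeR, adjusted p = 0.0006), which is 3.58-fold. In FL1 it rose by 1.04 ± 0.12 (edgeR, adjusted p = 1.42e-05), which is 2.05-fold (95% interval 1.73 to 2.43). In both lines no estrus library overlapped a diestrus library, which held for 4.45% of all genes in ctrl and for 11.7% in FL1. The stage change was smaller in FL1 by 0.93 ± 0.24 on the log2 scale (interaction -0.93, 95% interval -1.44 to -0.43). This interaction missed the threshold in edgeR (adjusted p = 0.126) and passed it in DESeq2 (adjusted p = 0.0381). Without ctrl estrus replicate 5 it was -0.80 (edgeR, adjusted p = 0.143). In edgeR 0 of 9 members and 0.0565% of all tested genes passed for the interaction, beside 1654 genes with an unadjusted p under 0.05. In DESeq2, 1% of all genes it tested passed for the interaction. By level, *Igfbp2* fell in the order ctrl estrus, FL1 estrus and then both diestrus groups, which overlapped.

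*Igfbp5* had 244, 160.0, 248, 208 and 144 CPM in the ctrl estrus libraries. In FL1 estrus it had 350.3, 360.3, 356, 284 and 285 CPM. No ctrl library in estrus reached the lowest FL1 library, opposite in direction to its neighbour *Igfbp2*. Such non-overlap held for 4.83% of all genes. The log2FC was 0.70 ± 0.15 (SE, n = 5 per group; edgeR, adjusted p = 0.0292), a 1.62-fold higher level (95% interval 1.29 to 2.04). Leaving out 1 library kept the direction, with log2FC from 0.61 to 0.79, but the call held in 5 of 10 such fits. It was lost without ctrl estrus replicate 2 (adjusted p = 0.0718) or 4 (0.0587) and without FL1 estrus replicate 1 (0.0748), 2 (0.0844) or 3 (0.0620), and it was kept without ctrl estrus replicate 5 (log2FC 0.61, adjusted p = 0.0237).

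In diestrus, *Igfbp5* had 223, 193, 163, 176 and 159.8 CPM in ctrl. The FL1 diestrus libraries had 264.9, 259, 213, 220.0 and 239 CPM. The lines overlapped only through ctrl replicate 1, which lay above the lowest 2 FL1 libraries. The log2FC was 0.38 ± 0.10 and lay just outside the threshold (edgeR, adjusted p = 0.0557), and it passed in DESeq2 (adjusted p = 0.0152), with the filter of at least 1 count (edgeR, adjusted p = 0.0348) and without ctrl diestrus replicate 1 (edgeR, log2FC 0.46, adjusted p = 0.0116). That last fit was the only 1 of 10 without 1 library that passed, and adjusted p reached 0.132 among the others (edgeR). Averaged over both stages in a fit of all 20 libraries, *Igfbp5* was stronger expressed in FL1 by 0.54 ± 0.10 (edgeR, adjusted p = 0.000806), and this call held in 20 of 20 fits that left out 1 library. In that average 2 of 9 members were called, where 7.56% of all tested genes were (3.7% higher and 3.86% lower in FL1). The other one was *Igfbp2* with -0.42 ± 0.12 (edgeR, adjusted p = 0.0376), which averages the log2FC of -0.89 in estrus with that of 0.05 in diestrus. That call held in 8 of 20 such fits, with adjusted p up to 0.0804 without ctrl diestrus replicate 1, and was lost without ctrl estrus replicates 3 or 5, FL1 estrus replicates 1, 3 or 5, ctrl diestrus replicates 1, 2 or 5 or FL1 diestrus replicates 1, 2, 3 or 4. The interaction of line and stage for *Igfbp5* was 0.32 ± 0.19 (edgeR, adjusted p = 0.538). *Igfbp5* rose in estrus in FL1 by 0.45 ± 0.10 (edgeR, adjusted p = 0.00419) without overlap, and had a log2FC of 0.13 ± 0.16 with overlap in ctrl (edgeR, adjusted p = 0.773), or 0.23 without ctrl estrus replicate 5 (edgeR, adjusted p = 0.445). Non-overlap of the FL1 stages held for 11.7% of all genes.

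**Figure D2:**
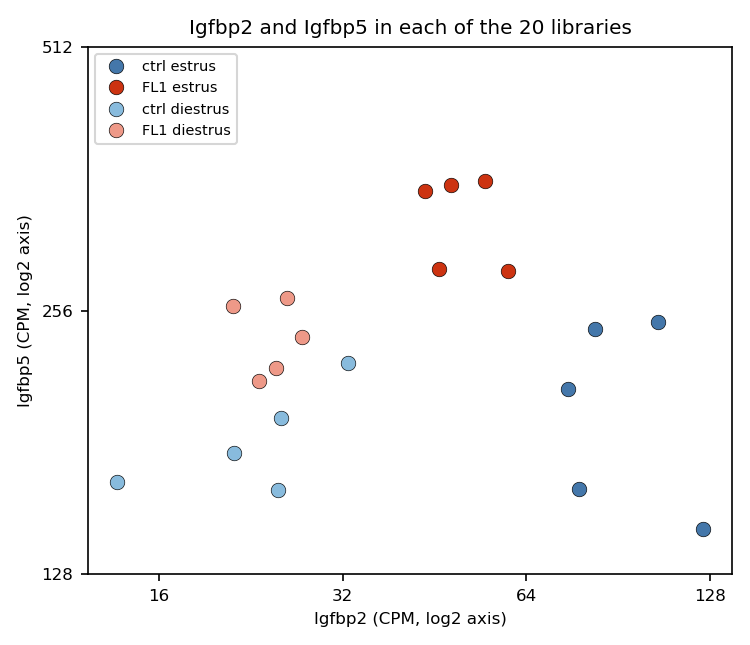
*Igfbp2* (x axis) and *Igfbp5* (y axis) in each of the 20 libraries, both in CPM on log2 axes, with 1 point per library coloured by line and stage. The ctrl estrus libraries lie to the right at 74.8 to 124 CPM of *Igfbp2*, the FL1 estrus libraries lie above all others at 284 to 360.3 CPM of *Igfbp5*, and the diestrus libraries of both lines lie to the left.

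Since both counts come from the same library, the reads of *Igfbp5* per read of *Igfbp2* do not depend on the scaling between libraries. This ratio was lowest in ctrl estrus, from 1.16 to 2.94 with a median of 2.37. It ran from 4.75 to 8.03 (median 6.58) in FL1 estrus, from 6.38 to 11.9 (median 7.63) in ctrl diestrus and from 8.69 to 12.2 (median 9.13) in FL1 diestrus. The ctrl estrus range lay below the other 3. The FL1 ranges of estrus and diestrus did not overlap each other, and the ctrl diestrus range overlapped both. The ratio combines the values tested above and was not tested again.

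The summed level of the 6 surface epithelium markers was 114 to 205 CPM in FL1 estrus and 91.5 to 104 CPM in ctrl estrus, without overlap, and 1 of the 6, *Upk3b*, was called where 2.33% of all tested genes were (log2FC 0.69 ± 0.17, edgeR, adjusted p = 0.0468). The 4 oviduct markers summed to 2.36 to 5.25 CPM in FL1 estrus and 0.130 to 1.82 CPM in ctrl estrus, with *Pax8* and *Dynlrb2* under 0.5 CPM in every group. The summed markers of granulosa, theca and interstitial, luteal, oocyte, stroma, smooth muscle, endothelium, fat, blood and immune cells overlapped between the lines in estrus, and 0 of their tested genes were called there. In diestrus, *Foxl2* (granulosa), *Lhcgr* (luteal), *Cd68* (immune) and *Hba-a2* (blood) were called higher in FL1, and *Upk1b* (surface epithelium) was called lower. Each was the only gene of its list called there, where 4.11% of all tested genes differed. The part of these markers in the line differences of the IGF genes, such as *Igfbp2* and *Igfbp5*, was not tested.

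*Igfbp4* had 810.4, 1218, 1413, 1191 and 1227 CPM in the ctrl estrus libraries. In ctrl diestrus it had 421, 570.2, 742, 389 and 789.7 CPM. The stages did not overlap in ctrl, but ctrl estrus replicate 1 and the highest diestrus library lay close. Such non-overlap held for 4.45% of all genes. The rise in estrus was 1.01 ± 0.21 on the log2 scale (edgeR, adjusted p = 0.0207), which is 2.01-fold (95% interval 1.47 to 2.74). The direction held in all 10 fits without 1 library (log2FC 0.89 to 1.14), and the call in 5 of them. It was lost, with adjusted p up to 0.0553, without ctrl estrus replicates 2, 3 or 4 or ctrl diestrus replicates 2 or 4, and kept without ctrl estrus replicate 5 (log2FC 0.99, adjusted p = 0.0268). In FL1, *Igfbp4* had 695, 883, 839, 1143 and 1100.0 CPM in estrus. In FL1 diestrus it had 539.9, 471, 504, 513 and 655 CPM. These libraries did not overlap either, which held for 11.7% of all genes in FL1. The rise was 0.79 ± 0.13 (edgeR, adjusted p = 0.000454). Between the lines *Igfbp4* had a log2FC of -0.33 ± 0.16 in estrus (edgeR, adjusted p = 0.344) and -0.12 ± 0.18 in diestrus (edgeR, adjusted p = 0.791).

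*Igfbp6* (ENSMUSG00000023046, chr15:102144362-102149511, plus strand) encodes the carrier that prefers IGF2 over IGF1. In FL1 it had 55.9, 56.5, 59.5, 64.2 and 53.4 CPM in estrus. In FL1 diestrus it had 50.2, 40.5, 43.8, 28.9 and 39.6 CPM. Every FL1 estrus library lay above every FL1 diestrus library, a non-overlap that held for 11.7% of all genes. The rise was 0.51 ± 0.12 on the log2 scale (edgeR, adjusted p = 0.00996). The value in ctrl was of the same size, 0.55 ± 0.18, and missed the threshold (edgeR, adjusted p = 0.137). It passed without ctrl diestrus replicate 1 (log2FC 0.72, adjusted p = 0.0270), whose 53.8 CPM lay among the ctrl estrus libraries at 47.8 to 62.6 CPM. The log2FC between the lines was 0.08 in estrus (95% interval -0.14 to 0.30), or 0.14 without ctrl estrus replicate 5, and 0.12 in diestrus (95% interval -0.29 to 0.53).

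*Igfbp7* (ENSMUSG00000036256, chr5:77349240-77408041, minus strand) encodes a matrix protein of blood vessels with low affinity for the IGFs. In ctrl diestrus it had 1173, 1439.7, 1236, 1426 and 1238 CPM. In FL1 diestrus it had 1165, 1147, 1062, 974 and 978 CPM. All FL1 libraries lay below all ctrl libraries, though only by the small step from 1173 to 1165 CPM, and such non-overlap held for 5.37% of all genes. The log2FC was -0.29 ± 0.09 and did not pass in edgeR (adjusted p = 0.0993), while it passed in DESeq2 (adjusted p = 0.0306). Without 1 library it passed in 0 of 10 fits (edgeR, adjusted p up to 0.215). In estrus the lines overlapped, with means of 1053 ± 124 CPM in ctrl and 982 ± 107 CPM in FL1 (log2FC -0.10 ± 0.12, edgeR, adjusted p = 0.736). The last 85 bases of *Igfbp7* overlap the end of *Polr2b* on the opposite strand. *Polr2b* had 11692 counts in all libraries together, against 5460 to 12624 of *Igfbp7* in a single library.

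*Igfbp3* (ENSMUSG00000020427, chr11:7206086-7213923, minus strand), whose product is the main carrier in serum, had the fewest counts of the tested members, 27 to 122 per library. Its means were 7.65 ± 2.09 CPM in ctrl estrus, 7.92 ± 1.53 in FL1 estrus, 12.3 ± 5.01 in ctrl diestrus and 12.5 ± 4.12 in FL1 diestrus (SD, n = 5). Between the lines in estrus the log2FC was 0.06, or -0.01 without ctrl estrus replicate 5. The libraries overlapped in every comparison, and in each line 1 diestrus library was far below the other 4. The log2FC of estrus against diestrus was -0.70 ± 0.32 in ctrl (edgeR, adjusted p = 0.326) and -0.66 ± 0.25 in FL1 (edgeR, adjusted p = 0.0819). In FL1 it passed without FL1 diestrus replicate 4 (log2FC -0.84, adjusted p = 0.00945) and with the filter of at least 1 count (adjusted p = 0.0457).

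Averaged over both lines in the fit of all 20 libraries, 8 of the 9 members differed between the stages, where 15.9% of all tested genes did (8.25% rose and 7.62% fell). *Igf1*, *Igfbp2*, *Igfbp4*, *Igfbp5* and *Igfbp6* rose in estrus, and *Igf1r*, *Igfbp3* and *Igfbp7* fell. *Igf2r* had 0.18 ± 0.11 (edgeR, adjusted p = 0.279). The calls of *Igf1*, *Igf1r*, *Igfbp2*, *Igfbp4* and *Igfbp6* held in 20 of 20 fits without 1 library. The other 3 were small or variable. *Igfbp3* (-0.68 ± 0.21, edgeR, adjusted p = 0.0334) held in 11 of 20 and reached adjusted p = 0.0658 without ctrl diestrus replicate 4. *Igfbp5* (0.29 ± 0.10, edgeR, adjusted p = 0.0403) held in 7 of 20 and reached 0.0848 without FL1 diestrus replicate 3. *Igfbp7* (-0.21 ± 0.07, edgeR, adjusted p = 0.0449) held in 10 of 20 and reached 0.0914 without FL1 estrus replicate 2. For *Igfbp3*, the call was also lost without ctrl estrus 4, FL1 estrus 2 or 4, ctrl diestrus 2 or 3 or FL1 diestrus 2, 3 or 5. For *Igfbp5*, it was also lost without ctrl estrus 1, 3 or 4, FL1 estrus 1, 2 or 3, ctrl diestrus 2, 3, 4 or 5 or FL1 diestrus 4 or 5. For *Igfbp7*, it was also lost without ctrl estrus 1 or 5, FL1 estrus 1 or 3, ctrl diestrus 2 or 4 or FL1 diestrus 1, 2 or 3.

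**Figure D3:**
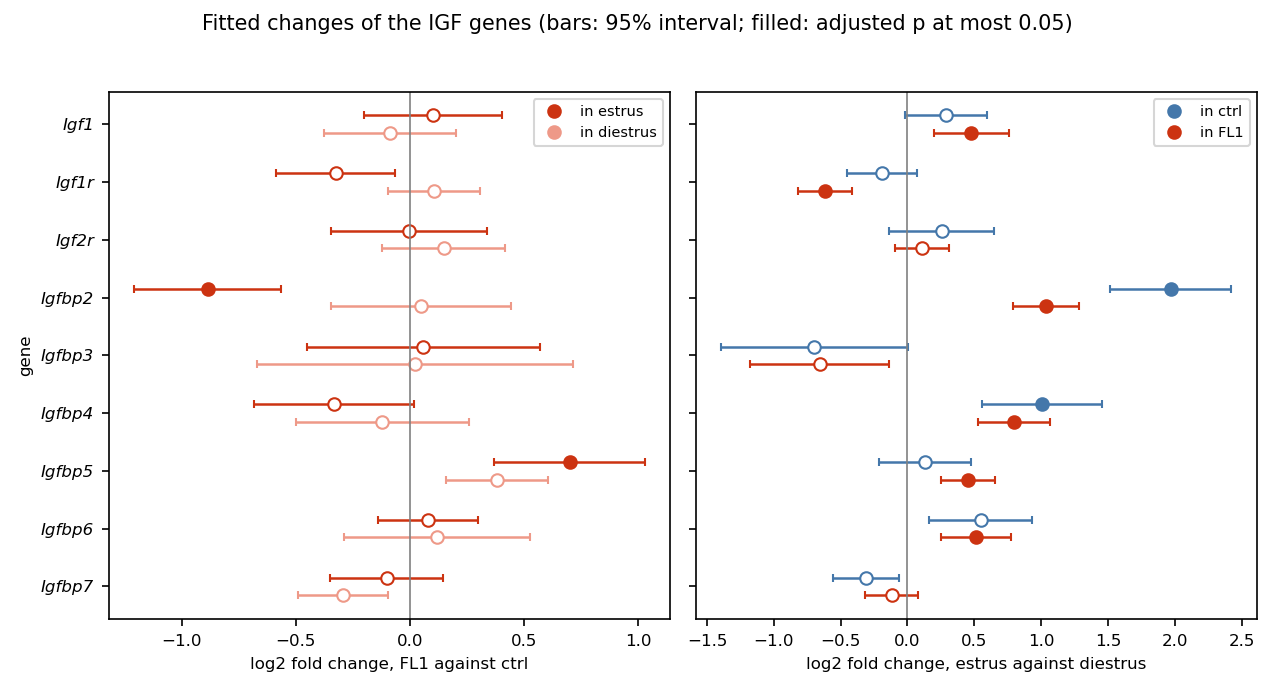
Fitted log2 fold changes of the 9 tested genes (x axis) for FL1 against ctrl (left, by stage) and for estrus against diestrus (right, by line), with 95% intervals; filled points have an adjusted p of at most 0.05 in edgeR. *Igfbp2* and *Igfbp5* are the filled points on the left, at -0.89 and 0.70, both in estrus, and on the right *Igfbp2* and *Igfbp4* are filled in both lines.

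Cell type markers moved with the stage as well. The 6 stroma markers summed to 2820.3 to 4448 CPM in ctrl estrus against 1714 to 2625 CPM in ctrl diestrus, and to 2361 to 3717 CPM in FL1 estrus against 1604 to 2212 CPM in FL1 diestrus. Neither pair overlapped, and 2 of the 6 stroma markers rose in ctrl and 5 of 6 in FL1, where 2.85% and 15.9% of all tested genes changed. In FL1, 4 of 5 tested theca and interstitial markers, 4 of 6 luteal markers, 3 of 5 endothelial markers, 4 of 5 blood markers and 4 of 9 granulosa markers fell in estrus, while 5 of 6 surface epithelium and 3 of 5 smooth muscle markers and the luteal marker *Parm1* rose. In ctrl, 1 of 5 theca and interstitial, 1 of 6 luteal, 0 of 5 endothelial, 0 of 5 blood and 1 of 9 granulosa markers fell, while 0 of 6 surface epithelium and 2 of 5 smooth muscle markers and *Parm1* rose. These counts of ctrl and FL1 were not tested against each other. The part of these markers in the stage changes of the IGF genes was not tested.

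Among the proteases that cut the binding proteins, *Pappa* and *Pappa2* had larger log2FC between the stages than *Htra1* in both lines. *Pappa*, which encodes PAPP-A, had 37.4, 21.3, 29.4, 47.1 and 21.5 CPM in FL1 diestrus. In FL1 estrus it had 8.51, 6.15, 7.02, 4.57 and 6.20 CPM. The FL1 stages lay far apart, with a log2FC of -2.27 ± 0.23 for estrus against diestrus (edgeR, adjusted p = 6.18e-06). In ctrl, *Pappa* had 4.90, 11.4, 16.4, 22.2 and 3.69 CPM in diestrus and 2.14 to 6.45 CPM in estrus, which overlapped (log2FC -1.47 ± 0.47, edgeR, adjusted p = 0.126). Between the lines in diestrus, 3 of the 5 FL1 libraries lay above the highest ctrl library and the other 2 lay just below it. The log2FC was 1.44 ± 0.39 in diestrus (edgeR, adjusted p = 0.0545) and 0.63 ± 0.31 in estrus (edgeR, adjusted p = 0.341), and 1.03 ± 0.27 averaged over both stages (edgeR, adjusted p = 0.0195).

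*Pappa2*, whose product cuts IGFBP3 and IGFBP5, ran the other way. It had 6.30, 8.94, 17.5, 8.56 and 4.22 CPM in ctrl estrus. It had 6.75, 10.0, 7.33, 9.15 and 5.13 CPM in FL1 estrus. In diestrus it was close to the limit of detection, with 0 to 5 counts per ctrl library and 0 counts in all 5 FL1 libraries. In ctrl it was higher in estrus by a log2FC of 4.87 ± 0.61 (edgeR, adjusted p = 0.00126). In FL1 it was at least 15.4-fold higher in estrus, taking 3 counts per library as the most that a count of 0 allows (edgeR, adjusted p = 3.06e-06). *Stc2*, which encodes a stanniocalcin that blocks PAPP-A, rose in FL1 estrus by 1.06 ± 0.29 (edgeR, adjusted p = 0.0212). *Htra1*, which encodes a serine protease of the matrix, rose there by 0.36 ± 0.09 (edgeR, adjusted p = 0.0147). *Stc1* had a log2FC of -0.01 ± 0.23.

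**Figure D4:**
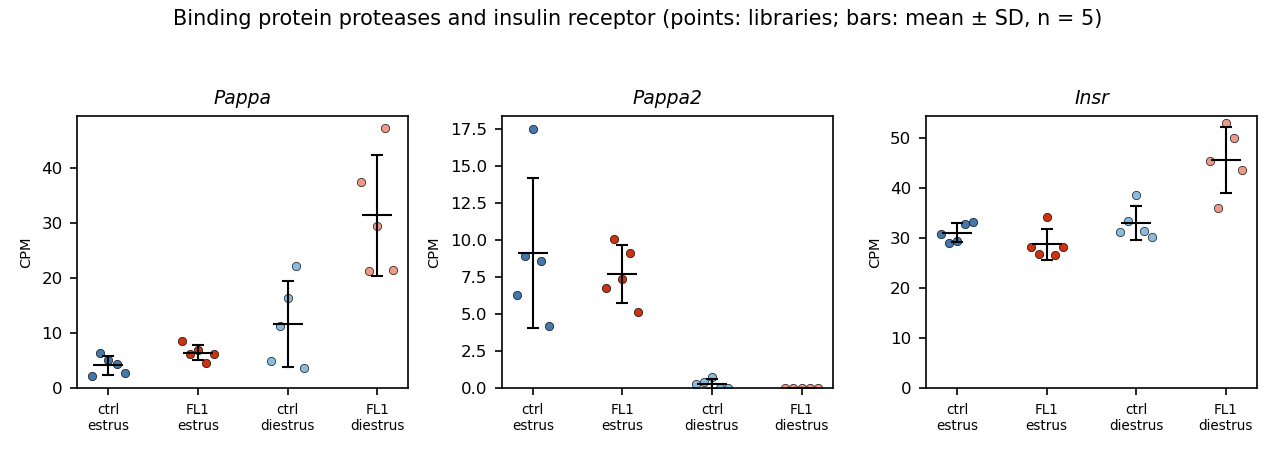
*Pappa*, *Pappa2* and *Insr* in each library, in CPM on linear axes that start at 0, by line and stage; points are libraries and bars are the mean ± SD of 5 mice. *Pappa* is highest in FL1 diestrus with a mean of 31.3 CPM, *Pappa2* is near 0 in both diestrus groups, and *Insr* is highest in FL1 diestrus with a mean of 45.6 CPM.

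The other genes of the axis were 64 genes in 8 lists, from the growth hormone receptor to the kinases below the receptors. They include a list of 8 imprinted partners and neighbours of *Igf2* and *Igf2r*. Another list holds 4 genes of mannose 6-phosphate sorting, the other role of *Igf2r*. Between the lines 0 of 55 tested genes differed in estrus, where 2.33% of all tested genes did. Their median log2FC was -0.06, beside -0.01 for all genes. In diestrus 1 of 53 rose and 2 fell in FL1, beside 2.29% and 1.82% of all tested genes, a share near the background. The 1 that rose was *Insr*, the insulin receptor, which can pair with the IGF1 receptor. It had 45.4, 36.1, 53.0, 49.96 and 43.6 CPM in FL1 and 31.2, 33.5, 38.6, 31.4 and 30.3 CPM in ctrl. Only the lowest FL1 library reached into the ctrl range, and the log2FC was 0.47 ± 0.12 (edgeR, adjusted p = 0.0385). *Eif4ebp1*, a brake on translation that mTOR releases, fell by 0.42 on the log2 scale (edgeR, adjusted p = 0.0487).

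Between the stages, 2 of 54 tested axis genes rose and 2 fell in ctrl estrus, beside 1.78% and 1.06% of all tested genes. *Grb10*, an adaptor that restrains the insulin and IGF1 receptors, rose by 0.58 ± 0.12 (edgeR, adjusted p = 0.0230), as did *Pappa2*. *Grb14*, a related adaptor, fell by 0.78 (edgeR, adjusted p = 0.0377), and *Foxo1*, a transcription factor that AKT keeps out of the nucleus, fell by 0.85 (edgeR, adjusted p = 0.0408). In FL1 4 of 54 rose and 8 fell, beside 7.42% and 8.49% of all tested genes. *Insr* fell by 0.66 in FL1 estrus (edgeR, adjusted p = 0.00123), in the same direction as *Igf1r*. Further down, *Mapk3* fell by 0.42, *Sos1* by 0.44, *Pik3r1* by 0.46, *Gsk3b* by 0.39 and *Irs1* by 0.34 on the log2 scale (edgeR, adjusted p between 0.00889 and 0.0384). *Eif4ebp1* rose by 0.39 (edgeR, adjusted p = 0.00418). The median log2FC over the axis genes was 0.01 in ctrl and -0.04 in FL1, beside -0.01 and 0.01 for all genes. For the interaction 0 of 56 axis genes passed, beside 0.0565% of all tested genes. For the line averaged over both stages, 2 of 56 were higher in FL1 (*Pappa* and *Pik3r1*) and 1 was lower (*Tsc2*), beside 3.7% and 3.86% of all tested genes.

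Averaged over both lines, 11 of the 56 axis genes rose in estrus and 9 fell, beside 8.25% and 7.62% of all tested genes. Among those that rose, *H19* had a log2FC of 0.69. Of those not yet named, *Foxo4*, *Pik3r2*, *Shc1*, *Nagpa* and *Slc22a3* rose, with log2FC between 0.25 (*Pik3r2*) and 1.22 (*Slc22a3*), and *Ghr*, the growth hormone receptor, fell by 0.30 (edgeR, adjusted p = 0.0269). *H19* and *Slc22a3* are from the list of imprinted partners and neighbours, and *Nagpa* is from that of mannose 6-phosphate sorting.

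For the 6 members called in a comparison within a line or stage, the genes of most like pattern were taken as those with the highest Pearson correlation of log2 CPM over the 20 libraries. These values describe libraries that share the same 4 groups. *Igfbp2* was followed most closely by *Ren1* (r = 0.946, Spearman's rho = 0.958), which encodes renin, and then by *Pak6* (r = 0.913) and *Arhgef25* (r = 0.910). With the group means removed, its correlation with *Ren1* was 0.619. *Igfbp4* was most like *Vgll3* (r = 0.932) and *Fstl1* (r = 0.930), and *Igfbp6* was most like *Cilp* (r = 0.911), *Cavin3* (r = 0.883) and *Nagk* (r = 0.857). *Igf1r* was most like *Usp22* (r = 0.898), *Col6a4* (r = 0.865) and *Afdn* (r = 0.850). *Igfbp5* was most like *Mettl27* (r = 0.849), *Meg3* (r = 0.848) and *S100a11* (r = 0.846), and *Igf1* was most like *Pdpn* (r = 0.806), *Kif18a* (r = 0.800) and *Lyrm4* (r = 0.797). Among the members themselves, *Igfbp2* and *Igfbp4* had the highest correlation (r = 0.795), which was -0.02 with the group means removed. *Igfbp2* and its neighbour *Igfbp5* had r = 0.112, and 0.0753 with the group means removed.

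The median coefficient of variation of the members between mice was 18.8% in ctrl estrus, 13.2% in FL1 estrus, 21.01% in ctrl diestrus and 9.86% in FL1 diestrus. Over all genes kept it was 22.0%, 17.3%, 18.8% and 16.4% in the same order. The members' median was the lower one in ctrl estrus and in both FL1 groups and the higher one in ctrl diestrus, and the difference was not tested. The members were not set beside genes of like level, and counting error adds more to this coefficient at low counts.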

How the data were processed

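Total RNA from the ovaries of 20 mice was made into QuantSeq 3' libraries. The authors trimmed the reads to 51 nt, aligned them with STAR to GRCm38 and deposited raw counts of uniquely assigned reads per gene, with no normalization. The submitters' processing notes also name Cuffdiff. The counting program and its strand setting are not given in the sources used here. The groups came from the line and stage in the labels, and the source name, which reads FL1 for every library, was not used.

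The deposited counts were tested with edgeR 4.0.16 (R 4.3.3, limma 3.58.1): TMM factors, filterByExpr with a minimum count of 10 and the quasi-likelihood F-test, with Benjamini-Hochberg adjustment over all genes tested and a threshold of 0.05. Each comparison of lines or stages was fitted on its own 10 libraries. The interaction and the averages over lines or stages were fitted on all 20. Intervals are 95% intervals of the fit. The correlations used log2 CPM with a prior count of 2. The test was run on simulated data first. Plots and summaries used Python 3.11.15, numpy 2.4.6, pandas 2.3.3 and matplotlib 3.10.9.

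Alternatives were RLE size factors, DESeq2 1.42.0, all genes with at least 1 count, 1 fit of all 20 libraries, a replicate block and leaving out each library. The members, the gene lists and the marker lists were chosen with earlier results of these data known. The text names all 10 members, the other axis genes that were called, with *Pappa*, *Pappa2*, *Stc1* and *Insr* in full, and the 3 genes of most like pattern for each member called. Some genes that this rule would name are not reported here. *Gm49394*, *H19*, *Airn* and *Polr2b* are named for their position. Library totals had a median of 6957533 counts. No pair of libraries of a group was alike within sampling noise, with a chi-square per gene of 6.03 to 42.4 over 40 pairs. Of 54838 genes, 54723 were found in the annotation. Promoter windows and their coordinates are from RefSeq.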

Additional observations from a re-analysis of the deposited data

How the results depend on the processing

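Of the 63 log2FC of members, RLE size factors changed no direction and no call. For FL1 against ctrl in diestrus, 0 members were called, but 2 with DESeq2 (*Igfbp5* and *Igfbp7*), 1 with all genes of at least 1 count and 1 with the replicate block (*Igfbp5*, adjusted p = 0.0284). Of all tested genes, 4.11% were called there, 5.31% with DESeq2, 3.29% with genes of at least 1 count and 3.76% with the replicate block. For the interaction, 0 were called, but 1 with DESeq2 (*Igfbp2*). The share of all tested genes called for the interaction was 0.0565% in edgeR and 1% in DESeq2. *Igfbp6* in ctrl passed between the stages in the fit of all 20 libraries (adjusted p = 0.0408), and *Igfbp7* averaged over both lines missed the threshold with all genes of at least 1 count (adjusted p = 0.0872). Between the stages in ctrl, 2.85% of all tested genes were called, and 6.42% in the fit of all 20 libraries. For the stage averaged over both lines, 15.9% were called, and 7.19% with genes of at least 1 count. The cause of these changes was not tested.

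Same-numbered libraries of the groups deviated together with correlations of only -0.0953 to 0.126, and the mice were separate animals, so the replicate numbers do not pair them. With the replicate block, the members called for the line averaged over both stages went from 2 to 1 (*Igfbp2*, log2FC -0.41, adjusted p = 0.0586), and *Igf2r* in estrus turned from -0.0028 to 0.0173. Beside these and *Igfbp5* in diestrus, the block changed no call of a member. For the line averaged over both stages, 7.56% of all tested genes were called, and 7.19% with the block.

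Without 1 library, the number of members called ran from 1 to 2 for the lines in estrus, 0 to 1 in diestrus, 1 to 3 for the stages in ctrl, 5 to 7 in FL1, 0 to 0 for the interaction, 1 to 2 for the line averaged over stages and 5 to 8 for the stage averaged over lines. The share of all tested genes called ran from 1.28% to 3.06% for the lines in estrus and 2.59% to 4.43% in diestrus. It ran from 1.3% to 3.81% for the stages in ctrl and 11.7% to 17.2% in FL1. For the interaction it was 0% to 0.104%, for the averaged line 5.94% to 7.98% and for the averaged stage 13.3% to 17.6%. Values near 0 changed sign without 1 library. Between the lines in estrus these were *Igf1* (-0.044 to 0.18), *Igf2r* (-0.13 to 0.064) and *Igfbp3* (-0.059 to 0.18). In diestrus they were *Igf1* (-0.19 to 0.0037), *Igfbp2* (-0.095 to 0.20), *Igfbp3* (-0.19 to 0.21) and *Igfbp4* (-0.23 to 0.015). For the interaction they were *Igfbp3* (-0.15 to 0.26) and *Igfbp6* (-0.21 to 0.080), and for the averaged line *Igf1* (-0.062 to 0.056) and *Igfbp3* (-0.064 to 0.14).

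Over all genes, 311 differed between the lines in estrus, against 670 with DESeq2, 477 with genes of at least 1 count, 531 in the fit of all 20 libraries, 230 with the replicate block and 175 to 418 without 1 library, the highest without ctrl estrus replicate 5 and the lowest without FL1 estrus replicate 2. In diestrus 545 differed, against 892 with DESeq2, 846 with genes of at least 1 count, 498 with the replicate block and 349 to 594 without 1 library, the lowest without FL1 diestrus replicate 4. Between the stages in ctrl 380 differed, against 768 with DESeq2, 909 in the fit of all 20 libraries, 259 with the replicate block and 176 to 516 without 1 library, the highest without ctrl estrus replicate 5 and the lowest without ctrl diestrus replicate 4. For the interaction 8 differed, against 152 with DESeq2 and 17 with genes of at least 1 count, 12 with the replicate block and 0 to 15 without 1 library. *Igf2*, at 0 counts, and *Igfbp3*, with 27 to 122 counts per library, are the members with the fewest reads.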
